A study of Mus musculus with 15 samples.

Results

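Livers of male C57BL/6 mice labelled Sirt3-/- were compared with livers of wild-type mice when both had eaten a high salt diet, by sequencing of poly(A)-selected RNA. The comparison took all columns of the read-count table that carry either label, 3 libraries of labelled knockout mice on high salt (KO HSD) and 3 of wild-type mice on high salt (WT HSD), 6 of the 15 libraries of the series. All 18131 genes of the table entered, and 13051 passed the filter on low counts. The high salt food held 8% NaCl. Normal salt food held 0.4% NaCl, and 3 labelled knockout (KO NSD) and 3 wild-type (WT NSD) libraries from that diet shared the fit and serve below for the difference between diets. Another 2 wild-type libraries on high salt, whose titles carry no genotype, are called the additional WT HSD libraries and stand outside the test. The mice were 6 months old, and feeding began at 6 weeks of age. Its length is 4 months in one label and 8 weeks in another. How the Sirt3 gene was disrupted is not stated in the labels. The labels also do not say whether libraries of a group came from separate animals, so the p-values measure only the spread between libraries, part or all of which may be technical.

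SIRT3 removes acetyl groups from enzymes of the mitochondrial matrix, using NAD as its co-substrate, and its known targets burn fatty acids, make ketone bodies, turn the citric acid cycle and clear superoxide. These are changes of proteins, so a loss of SIRT3 need not move the mRNA of its targets. The title of the series puts the question of whether SIRT3 takes part in an inflammatory response of the liver to salt. In inflammation, cytokines such as interleukin-6 and interleukin-1 act on hepatocytes through the transcription factors STAT3, C/EBP-beta and NF-kB, and hepatocytes then secrete acute phase proteins into the blood. Neutrophils, drawn in by chemokines such as CXCL1, are scarce in a resting liver.

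No gene passed between KO HSD and WT HSD (0 of 13051, or 0%, at a Benjamini-Hochberg adjusted p under 0.05 by edgeR's quasi-likelihood test), and the smallest adjusted p was 0.221. At an unadjusted p under 0.05 stood 603 genes (4.62%), 340 of them higher (2.61%) and 263 lower (2.02%) in KO HSD. DESeq2 called 28 genes, 20 higher and 8 lower, and limma-voom 0. Without KO HSD 3 edgeR called 7 genes and without WT HSD 1 it called 2. In 533 genes (4.08%) all 3 KO HSD values lay above all 3 WT HSD values, and in 512 (3.92%) all lay below, and such groups are called apart from here on. Counts of list members apart, or at an unadjusted p under 0.05, are to be read beside these shares and were not tested against them. Of all genes tested 47.2% stood above 0 and 52.8% below 0 on the log2 scale, with a median log2 fold change of -0.01. Since no gene passed, the differences below are described by their values, in CPM (counts scaled to library size by TMM), their log2 fold change with its standard error (SE), and whether the groups were apart.

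Sirt3 itself did not set the groups apart. The gene (chr7:140863663-140882309, GRCm38.p6) had 62.6, 68.9 and 56.7 CPM in KO HSD, against 84.1, 65.7 and 65.5 CPM in WT HSD, with 48.7 and 47.3 CPM in the additional WT HSD libraries. In CPM the lowest library of the 8 was an additional wild-type one, and WT HSD 2 and WT HSD 3 lay below KO HSD 2. The order differed in the authors' FPKM (counts scaled to gene length and library size). There Sirt3 had 43.5, 46.0 and 37.7 in KO HSD, against 57.0, 43.3 and 51.9 in WT HSD. The additional WT HSD libraries had 39.1 and 41.4 FPKM. On that scale KO HSD 3 was lowest, and of the WT HSD libraries only WT HSD 2 lay below KO HSD 2. The log2 fold change was -0.20 ± 0.18 (SE), adjusted p = 1.00, and it turned positive with the additional libraries, at 0.01 when they joined WT HSD and at 0.38 when they replaced it. A gene count cannot show an allele that lacks only some exons, so the libraries are called labelled knockout and each direction rests on the labels. The 7 sirtuin genes, Sirt3 included, had log2 fold changes from -0.20 to 0.19, 1 of them higher, and 6 were higher with the additional libraries in place.

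The 6 libraries had 18829645 to 19235726 expected counts in total, 12327 to 12697 genes with at least 10 counts, and a hepatocyte profile, with the hepatocyte marker sum at 146980 to 200940 CPM in KO HSD and 128990 to 162250 CPM in WT HSD. WT HSD 3 stood apart in the deposited values, as did WT NSD 3 and the additional wild-type libraries of both diets. The effective length of the shortest gene was 255.6 bases in WT HSD 3, against 261.7 to 262.4 bases in the other 5 high salt libraries, and its TMM factor was 1.12, against 0.93 to 0.98. The additional WT HSD libraries had 255.9 and 256.1 bases and TMM factors of 1.13 and 1.24. With them in place of WT HSD all 27 ribosomal protein genes stood higher, by a median of 0.48, beside 21 of 27 and 0.05 in the main fit. Where they replace WT HSD below, a shift between library sets cannot be told apart from variation between wild-type livers. All 6 libraries carried Y-linked transcripts, with Ddx3y at 20.7 to 43.4 CPM. KO NSD 1 and KO NSD 3 nearly lacked them, at 0.198 and 0 CPM of Ddx3y, although labelled male. They enter this comparison through the shared estimate of the spread and through the filter on low counts, which 12499 genes passed in the 6 high salt libraries alone. Without WT HSD 3 and WT NSD 3 the count of genes passing was 0, as it was with all 12.

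**Figure D1:**
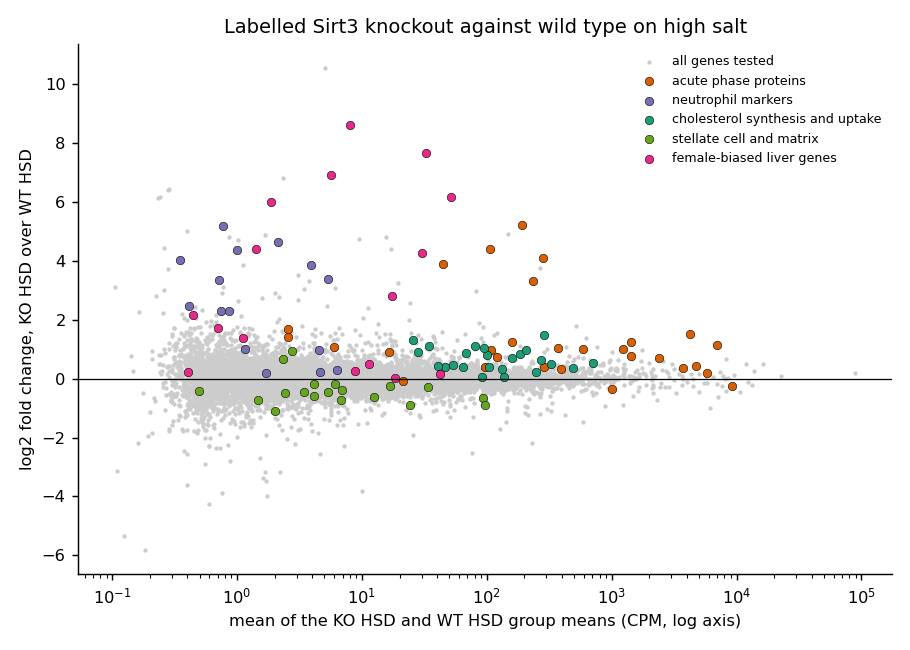
Each point is 1 of 13051 genes, with the mean of the KO HSD and WT HSD levels on the x axis (CPM, log scale) and the log2 fold change of KO HSD over WT HSD on the y axis, and the members of 5 lists are coloured. Acute phase, neutrophil, sterol and female-biased genes lie mostly above 0 and 17 of 19 stellate cell and matrix genes below it, and none of the points passed the test.

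Genes of the acute phase were mostly higher in KO HSD, and their largest differences came from KO HSD 1 and KO HSD 2. Of 29 acute phase genes tested 26 stood higher and 3 lower, 16 at an unadjusted p under 0.05, all of these higher, and 3 with the groups apart. The median log2 fold change was 1.01, beside -0.01 over all genes, and with the additional WT HSD libraries in place of WT HSD 19 of the 29 stood higher and the median was 0.48. Haptoglobin (Hp), which binds free haemoglobin, had 7278, 8161 and 3392 CPM in KO HSD, against 1895, 2625 and 2123 CPM in WT HSD. Its 3 KO HSD libraries lay above all 3 WT HSD libraries, with a log2 fold change of 1.499 ± 0.34 (adjusted p = 0.695). The additional WT HSD libraries, however, had 4139 and 3336 FPKM of Hp, above KO HSD 3 at 2376 FPKM and below KO HSD 1 and KO HSD 2. Hemopexin (Hpx), which binds free haem, had 11122, 12776 and 5067 CPM in KO HSD, against 3658, 5496 and 4089.6 CPM in WT HSD, so that KO HSD 3 fell inside the WT HSD range. Itih3, a heavy chain that joins hyaluronan, had 2078, 1864 and 969 CPM in KO HSD, against 592, 856 and 979 CPM in WT HSD. For both Hpx and Itih3 the additional WT HSD libraries too stood above KO HSD 3 in FPKM. They had 5472 and 4580 FPKM of Hpx, against 3217 in KO HSD 3, and 541 and 402 FPKM of Itih3, against 319.

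The acute phase genes with the steepest differences were low in WT HSD and in KO HSD 3 alike. Lcn2, Saa1, Saa2, Orm1, Orm2, Orm3, Serpina3n and Apcs are named after their values were seen. Lipocalin-2 (Lcn2), which binds bacterial siderophores, had 668, 444 and 12.5 CPM in KO HSD, against 5.53, 19.8 and 5.24 CPM in WT HSD. Serum amyloid A1 (Saa1) had 527, 700.3 and 50.2 CPM in KO HSD, against 34.3, 50.4 and 42.4 CPM in WT HSD. Orosomucoid 2 (Orm2), an acid glycoprotein of plasma, had 1060.2, 511 and 24.9 CPM in KO HSD, against 12.04, 42.5 and 39.2 CPM in WT HSD. In each of the 3 genes KO HSD 1 and KO HSD 2 stood more than 10-fold above KO HSD 3, and the groups overlapped. The log2 fold changes were 5.20 ± 1.70 for Lcn2, 3.32 ± 1.34 for Saa1 and 4.08 ± 1.51 for Orm2, with adjusted p of 0.933, 1.00 and 1.00. The additional WT HSD libraries had 112 and 32.3 CPM of Lcn2, 935 and 65.2 CPM of Saa1 and 226 and 59.6 CPM of Orm2, and the first of them held more Saa1 than any KO HSD library. With those libraries in place of WT HSD the log2 fold change of Saa1 was -0.24 and that of Saa2 was -0.39. Saa1 with Saa2, and Orm1 with Orm2 and Orm3, are near-identical copies between which reads may have been split. Acute phase genes of a steadier level differed less. Orm1 had 2599.6, 2610.4 and 795 CPM in KO HSD, against 946, 1134 and 479.9 CPM in WT HSD, Serpina3n, a protease inhibitor, had 1004, 973 and 376 CPM in KO HSD, against 369, 462 and 337 CPM in WT HSD, and the amyloid P component (Apcs) had 279, 303 and 87.7 CPM in KO HSD, against 98.6, 96.7 and 86.95 CPM in WT HSD. In those 3 genes too KO HSD 1 and KO HSD 2 were the high libraries.

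The promoters of Lcn2, Saa1 and Orm2 are shown because these genes moved together by library, with a match to the C/EBP motif in capitals. Each window runs 300 bases, from 250 before the RefSeq start to 50 after it, on GRCm38.p6, read 5′ to 3′ on the gene's strand. The windows are chr2:32387690-32387989 (minus strand) for Lcn2, chr7:46742931-46743230 (minus strand) for Saa1 and chr4:63362199-63362498 (plus strand) for Orm2.
Lcn2: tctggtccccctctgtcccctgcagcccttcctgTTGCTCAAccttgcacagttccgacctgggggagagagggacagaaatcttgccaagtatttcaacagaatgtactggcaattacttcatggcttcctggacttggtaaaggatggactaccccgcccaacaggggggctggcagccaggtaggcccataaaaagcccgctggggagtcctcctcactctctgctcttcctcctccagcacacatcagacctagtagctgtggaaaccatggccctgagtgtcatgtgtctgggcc
Saa1: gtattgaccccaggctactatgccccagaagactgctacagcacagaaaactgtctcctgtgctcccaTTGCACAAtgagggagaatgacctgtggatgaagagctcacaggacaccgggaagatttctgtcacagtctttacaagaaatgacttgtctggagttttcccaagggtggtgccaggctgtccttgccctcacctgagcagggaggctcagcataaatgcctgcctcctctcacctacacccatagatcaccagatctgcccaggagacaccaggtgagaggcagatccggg
Orm2: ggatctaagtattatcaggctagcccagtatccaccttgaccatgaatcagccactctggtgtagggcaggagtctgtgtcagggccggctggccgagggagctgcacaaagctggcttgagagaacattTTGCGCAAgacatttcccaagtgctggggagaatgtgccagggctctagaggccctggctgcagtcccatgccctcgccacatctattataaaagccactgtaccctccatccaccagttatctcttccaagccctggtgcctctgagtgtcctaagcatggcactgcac
The capitals begin at position -216 in Lcn2, -182 in Saa1 and -120 in Orm2, counted from the start as 0, and none overlaps a match of the other motifs searched. The letters TTGCNNAA, on either strand, occurred in 12 of 23 acute phase genes with a promoter sequence (52.2%), beside 10.8% of all 32851 promoters of that length. List shares count a gene once if any of its promoters matched, and the share of all promoters counts each promoter, so the units differ. TTCNNNGAA, a STAT motif that reads alike on both strands, occurred in 7 of 23 (30.4%), beside 8.3%. An NF-kB motif, GGGA and CC with 4 open letters between them, occurred in 6 of 23 (26.1%), beside 20.7%. TTGCNNAA also occurred in 6 of 14 neutrophil marker genes (42.9%) and in 2 of 16 genes of cholesterol synthesis, uptake and sterol control (12.5%). A match describes letters in the window and says nothing of binding.

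**Figure D2:**
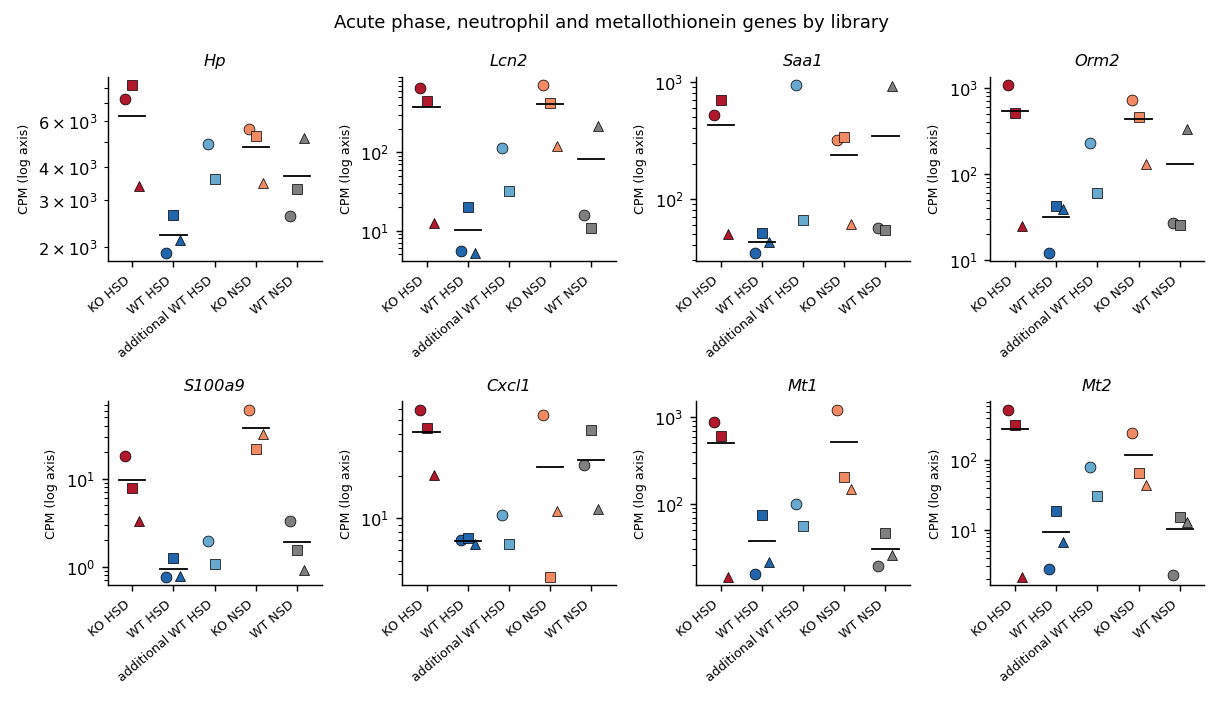
CPM (log axis) of 8 genes in single libraries of KO HSD, WT HSD, additional WT HSD, KO NSD and WT NSD, where circles, squares and triangles are libraries 1, 2 and 3 and bars are means of 3 libraries. For Lcn2, Orm2, Mt1 and Mt2 KO HSD 1 and KO HSD 2 lie above all WT HSD libraries while KO HSD 3 lies among or below them, and for Hp, S100a9 and Cxcl1 all 3 KO HSD libraries lie above the 3 WT HSD libraries.

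Neutrophil markers were low in all 6 libraries and higher in KO HSD. The 15 markers tested, of 16 listed, stood higher, 11 at an unadjusted p under 0.05, and in 10 the groups were apart, with a median log2 fold change of 2.46, beside -0.01 over all genes. Of these, 7 passed the filter only with the normal salt libraries in the fit, Retnlg, Mmp9 and Mpo among them. In the 6 high salt libraries alone 8 markers were tested, of which 8 stood higher, and the median was 1.00. S100a9, an inflammatory calcium-binding protein of neutrophils, had 18.04, 7.802 and 3.33 CPM in KO HSD, against 0.759, 1.26 and 0.789 CPM in WT HSD, a log2 fold change of 3.38 ± 0.70 (adjusted p = 0.64). Its partner S100a8 had 13.6, 6.06 and 2.33 CPM in KO HSD, against 0.488, 1.03 and 0.0464 CPM in WT HSD. Retnlg, a secreted resistin-like protein, had 1.71, 1.52 and 0.4999 CPM in KO HSD, against 0.163, 0.344 and 0.232 CPM in WT HSD, and the gelatinase gene Mmp9 had 2.36, 1.403 and 0.4999 CPM in KO HSD, against 0.3795, 0.344 and 0.139 CPM in WT HSD. In each of these 4 genes the groups were apart, and KO HSD 3 was the lowest KO HSD library. The granule genes Ngp and Mpo and the receptor gene Csf3r are named after their values were seen. Ngp had 10.5, 0.898 and 0.889 CPM in KO HSD, against 0.271, 0.0573 and 0.139 CPM in WT HSD. Mpo, the myeloperoxidase gene, had 3.48, 0.786 and 0.222 CPM in KO HSD, against 0.0542, 0 and 0.0464 CPM in WT HSD, where 1 library was at 0. Csf3r, the receptor of the growth factor G-CSF, had 5.997, 7.41 and 4.78 CPM in KO HSD, against 2.77, 3.84 and 2.598 CPM in WT HSD. The marker sum was 28.3 to 82.1 CPM in KO HSD and 14.3 to 21.1 CPM in WT HSD, with 18.9 and 21.1 CPM in the additional WT HSD libraries. In bulk tissue more cells of a type and more RNA per cell cannot be told apart. DESeq2 called S100a9, S100a8, Retnlg and Ngp, with adjusted p of 0.000102, 0.0195, 0.0488 and 0.0253.

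Markers of T and NK cells were also higher, and there KO HSD 3 was the highest library. Of 14 tested, from 17 listed, 12 stood higher, 5 at an unadjusted p under 0.05, 4 apart, with a median log2 fold change of 1.10. In the 6 high salt libraries alone 9 markers passed the filter, 8 of them higher, with a median of 0.66. Over the 14 markers the median was 0.48 without KO HSD 3, and 0.41 with the additional libraries in place of WT HSD. Nkg7, a cytotoxic granule gene, had 1.23, 1.91 and 2.61 CPM in KO HSD, against 0.651, 0.573 and 0.5104 CPM in WT HSD. Cd8a, the co-receptor of cytotoxic T cells, had 0.7496, 0.7297 and 1.89 CPM in KO HSD, against 0.325, 0.515 and 0.418 CPM in WT HSD, and Cd3d, a chain of the T cell receptor complex, had 0.428, 0.842 and 1.11 CPM in KO HSD, against 0.271, 0.401 and 0.278 CPM in WT HSD. All 3 genes were apart and all lay below 3 CPM. The marker sum was 9.75 to 34.4 CPM in KO HSD and 7.66 to 13.3 CPM in WT HSD, so the sums overlapped.

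Kupffer cell and macrophage markers stood higher in 19 of 20 genes (18 when scaled by library totals alone), by a median of 0.34. This hung on KO HSD 2, without which 8 stood higher and 12 lower and the median was -0.10. The median was 0.57 without KO HSD 3, 0.76 without WT HSD 1, 0.20 without WT HSD 2 and 0.15 without WT HSD 3. Itgam, an integrin of myeloid cells, had 2.14, 2.47 and 1.78 CPM in KO HSD, against 1.36, 1.202 and 0.789 CPM in WT HSD, and Ly6c2, a gene of inflammatory monocytes, had 2.03, 2.97 and 1.17 CPM in KO HSD, against 0.922, 0.6298 and 1.07 CPM in WT HSD. Both were apart. The marker sum overlapped, at 304 to 709 CPM in KO HSD and 256 to 534 CPM in WT HSD.

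Of 24 cytokine genes and NF-kB targets 19 stood higher (17 when scaled by library totals alone), with a median log2 fold change of 0.35. Of these, 3 stood at an unadjusted p under 0.05 and 2 were apart, beside 2.61% and 4.08% of all genes. With the additional libraries in place of WT HSD 11 of the 24 stood higher and the median was -0.12. Cxcl1, the chemokine that draws neutrophils, had 59.2, 44 and 20.2 CPM in KO HSD, against 7.05, 7.21 and 6.54 CPM in WT HSD. Every KO HSD library held more than any WT HSD library, with a log2 fold change of 2.56 ± 0.88 (adjusted p = 0.951), and the additional WT HSD libraries had 10.6 and 6.59 CPM. Nfkbia, which encodes the inhibitor that holds NF-kB in the cytosol, was apart too, at 61.3, 53.4 and 47.5 CPM in KO HSD, against 40.01, 40.1 and 33.7 CPM in WT HSD. Tnfaip3, which encodes the deubiquitinase A20 that damps NF-kB, had 6.21, 4.602 and 1.33 CPM in KO HSD, against 1.301, 1.26 and 1.44 CPM in WT HSD. KO HSD 3 fell among the WT HSD libraries, the additional WT HSD libraries had 3.86 and 6.22 CPM, and the log2 fold change of Tnfaip3 was -0.32 with these in place of WT HSD. Without KO HSD 3 it passed, at 2.01 ± 0.30 (adjusted p = 0.0492).

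Interferon response and MHC class I genes leaned higher by small amounts. Of 27 interferon response genes 24 stood higher (23 when scaled by library totals alone), 0 at an unadjusted p under 0.05, with a median of 0.21. Of 17 MHC class I and immunoproteasome genes 16 stood higher (14 by library totals alone), again 0 at an unadjusted p under 0.05, with a median of 0.20. The interferon median was 0.12 without KO HSD 1 and 0.46 without WT HSD 1, and the MHC class I median was 0.33 without WT HSD 2. With the additional libraries in place of WT HSD, 11 of the 27 and 7 of the 17 stood higher. Mlkl, the executor of necroptosis, was among the 10 higher genes with the smallest p. It had 7.12, 5.11 and 7.39 CPM in KO HSD, against 3.904, 3.55 and 3.02 CPM in WT HSD, and the groups were apart, but the additional WT HSD libraries had 7.15 and 9.59 CPM and their use in place of WT HSD gave a log2 fold change of -0.36.

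Metallothioneins, small proteins that bind zinc and copper and are induced by metals, glucocorticoids and interleukin-6, followed the acute phase genes by library. Mt1 had 872, 611 and 14.4 CPM in KO HSD, against 15.8, 73.97 and 21.7 CPM in WT HSD. Mt2 had 532, 327 and 2.11 CPM in KO HSD, against 2.77, 18.9 and 6.77 CPM in WT HSD. KO HSD 1 and KO HSD 2 were far above every wild-type library, and KO HSD 3 was the lowest of the 6 in both genes. Their log2 fold changes were 3.74 ± 1.39 and 4.92 ± 1.67, with adjusted p of 1.00 and 0.949. The Mt2 promoter, chr8:94172368-94172667 on the plus strand of GRCm38.p6, is shown with 6 matches to TGCNCNC, on either strand, in capitals. This string is looser than the core of the metal response element, which has A or G after TGC. The capitals TGCTCTC, and GGGAGCA read on the other strand, have T there.
Mt2: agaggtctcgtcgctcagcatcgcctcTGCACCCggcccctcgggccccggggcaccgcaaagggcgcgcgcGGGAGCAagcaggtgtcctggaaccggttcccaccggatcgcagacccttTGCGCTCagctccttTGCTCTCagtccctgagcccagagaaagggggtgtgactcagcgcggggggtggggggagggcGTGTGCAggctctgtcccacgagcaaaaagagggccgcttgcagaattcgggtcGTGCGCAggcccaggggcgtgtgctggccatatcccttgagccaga
The letters TGCNCNC are short and loose, and 51.0% of all promoters of this length hold them at least once. The 6 matches overlapped no match of the other motifs searched.

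Genes that differ between male and female liver split the KO HSD libraries. Growth hormone, released in pulses in males and steadily in females, sets most of these genes through STAT5b. The 16 female-biased genes tested, of 20 listed, stood higher in KO HSD (15 when scaled by library totals alone), 3 at an unadjusted p under 0.05 and 0 apart, with a median log2 fold change of 2.47. In the 6 high salt libraries alone 10 of them passed the filter, and the median was 0.94, so 6 were tested only through the normal salt libraries, Cyp2a4 among them. Without KO HSD 1, 9 of 16 stood higher and the median was 0.34. Cyp2a4, a steroid hydroxylase, had 47.4, 0.898 and 0 CPM in KO HSD, against 0, 0 and 0.0928 CPM in WT HSD. Cyp2b9, another P450 enzyme, had 286, 19.2 and 2.22 CPM in KO HSD, against 0.217, 0.172 and 3.67 CPM in WT HSD. Among the 6 libraries Cyp2a4 was thus high in KO HSD 1, low in KO HSD 2 and at or near 0 in the others, KO HSD 3 included. The P450 genes of these families are close copies, which can share reads. Cyp17a1, which makes sex steroid precursors, was high in KO HSD 1 and KO HSD 2, at 34.2, 53.6 and 3.499 CPM in KO HSD, against 4.23, 2.98 and 5.89 CPM in WT HSD. Its log2 fold change was 2.79 ± 0.75 (adjusted p = 0.867), and 3.32 ± 0.35 (adjusted p = 0.00983) without KO HSD 3. Sult1e1, the estrogen sulfotransferase gene and named after its values were seen, was likewise high in KO HSD 1 and KO HSD 2. It had 6.64, 7.297 and 0.0555 CPM in KO HSD, against 0.0542, 0.0573 and 0 CPM in WT HSD. These levels do not pass the filter in the 6 high salt libraries alone.

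The 15 male-biased genes tested all stood lower, 0 at an unadjusted p under 0.05 and 0 apart, with a median log2 fold change of -0.98. The median was -0.44 without KO HSD 1, -2.09 without KO HSD 3 and -0.63 without WT HSD 1. With the additional libraries in place of WT HSD 9 of 15 stood lower. Cyp4a12a, an arachidonic acid hydroxylase, had 1.39, 38.9 and 209 CPM in KO HSD, against 640.5, 348 and 153 CPM in WT HSD. Ugt2b38, a glucuronosyltransferase, had 0.375, 1.91 and 4.999 CPM in KO HSD, against 28.5, 5.61 and 1.95 CPM in WT HSD. In both genes KO HSD 1 was lowest and KO HSD 3 lay inside the WT HSD range. The summed level of the male-biased list was 3330 CPM in KO HSD 1, 9997 CPM in KO HSD 2 and 31103 CPM in KO HSD 3, and 13412 to 36288 CPM in WT HSD. KO HSD 1 carried Y-linked transcripts, at 36.8 CPM of Ddx3y.

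**Figure D3:**
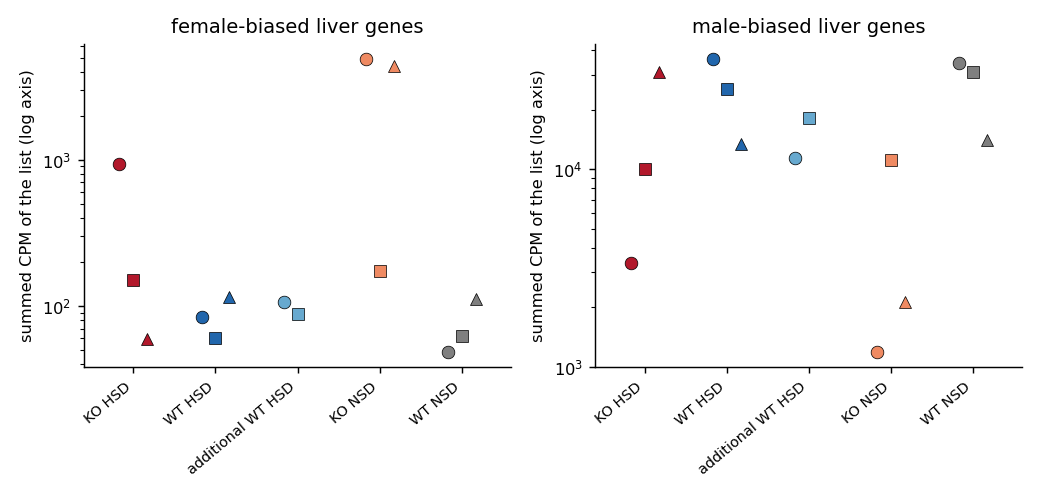
Summed CPM (log axis) of the female-biased list (left) and the male-biased list (right) in single libraries of KO HSD, WT HSD, additional WT HSD, KO NSD and WT NSD, where circles, squares and triangles are libraries 1, 2 and 3. KO HSD 1 has the highest female-biased sum of the high salt libraries, at 932 CPM, and the lowest male-biased sum, at 3330 CPM, while KO HSD 3 has 59.0 and 31103 CPM.

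Genes of fasting and glucose output stood mostly higher in KO HSD. Of 16 genes 14 stood higher (12 when scaled by library totals alone), 3 at an unadjusted p under 0.05, and in 4 the groups were apart, with a median log2 fold change of 0.33. The median was 0.18 without KO HSD 1, with 11 of 16 higher, 0.58 without KO HSD 3, 0.21 without WT HSD 1 and 0.63 without WT HSD 3. Igfbp1, an insulin-repressed binding protein of IGF1, had 238, 85.3 and 111 CPM in KO HSD, against 9.33, 21.3 and 23.7 CPM in WT HSD. The lowest KO HSD library stood above the highest of all wild-type libraries on high salt, the additional ones having 6.04 and 45.5 CPM, and the log2 fold change was 2.99 ± 0.78 (adjusted p = 0.867). Tat, the glucocorticoid-induced tyrosine aminotransferase, had 1502, 1342 and 1088 CPM in KO HSD, against 587, 746 and 752 CPM in WT HSD, and 908 and 552 CPM in the additional WT HSD libraries, a log2 fold change of 0.91 ± 0.27 (adjusted p = 0.867). Pck1, the enzyme that commits carbon to gluconeogenesis, had 2858, 2164 and 1276 CPM in KO HSD, against 1239, 764 and 636 CPM in WT HSD. G6pc, which frees glucose in the last step, had 459, 283 and 483 CPM in KO HSD, against 179.6, 148 and 276 CPM in WT HSD. Both were apart, by narrow margins. The additional WT HSD libraries had 271 and 627 FPKM of Pck1, the second above KO HSD 3 at 453 FPKM. They had 4.93 and 93.3 FPKM of G6pc, below every KO HSD library. Cebpb, which encodes C/EBP-beta, a factor of both fasting and the acute phase, had 180.3, 179 and 90.1 CPM in KO HSD, against 114, 74.02 and 59.7 CPM in WT HSD, and overlapped through KO HSD 3. Gadd45g, a stress-induced gene, had 33.6, 65.7 and 6.83 CPM in KO HSD, against 5.64, 1.603 and 3.76 CPM in WT HSD, and was apart. Its additional WT HSD libraries had 5.12 and 10.7 FPKM, the second above KO HSD 3 at 5.99 FPKM. Agt, which encodes the precursor of angiotensin and is made by hepatocytes, was apart as well, at 1113, 1059 and 866 CPM in KO HSD, against 593, 801 and 686 CPM in WT HSD (log2 fold change 0.54 ± 0.19, adjusted p = 0.949). The additional WT HSD libraries had 1056 and 469.9 CPM of Agt and so spanned both groups.

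All 24 genes of cholesterol synthesis, uptake and sterol control stood higher in KO HSD (22 when scaled by library totals alone, and 19 with the additional libraries in place of WT HSD). Of these, 1 stood at an unadjusted p under 0.05 and 3 were apart, beside 2.61% and 4.08% of all genes. The sterol genes answer together to SREBP2 when sterols run low. The median log2 fold change was 0.59, and 0.31 without KO HSD 3. Sqle, squalene epoxidase, had 125, 54.9 and 151 CPM in KO HSD, against 51.3, 39.04 and 60.9 CPM in WT HSD. Mvk, mevalonate kinase, had 42.6, 17.1 and 82.2 CPM in KO HSD, against 26.7, 22.2 and 16.8 CPM in WT HSD. Hmgcs1, an early synthase of the pathway and named after its values were seen, had 380.4, 83.1 and 804 CPM in KO HSD, against 137, 93.5 and 224 CPM in WT HSD. For Sqle, Mvk and Hmgcs1 KO HSD 1 and KO HSD 3 were the high libraries and KO HSD 2 lay inside or below the WT HSD range, a different split from that of the acute phase genes. The log2 fold changes of Sqle and Mvk were 1.12 ± 0.51 and 1.11 ± 0.52, each with an adjusted p of 1.00.

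**Figure D4:**
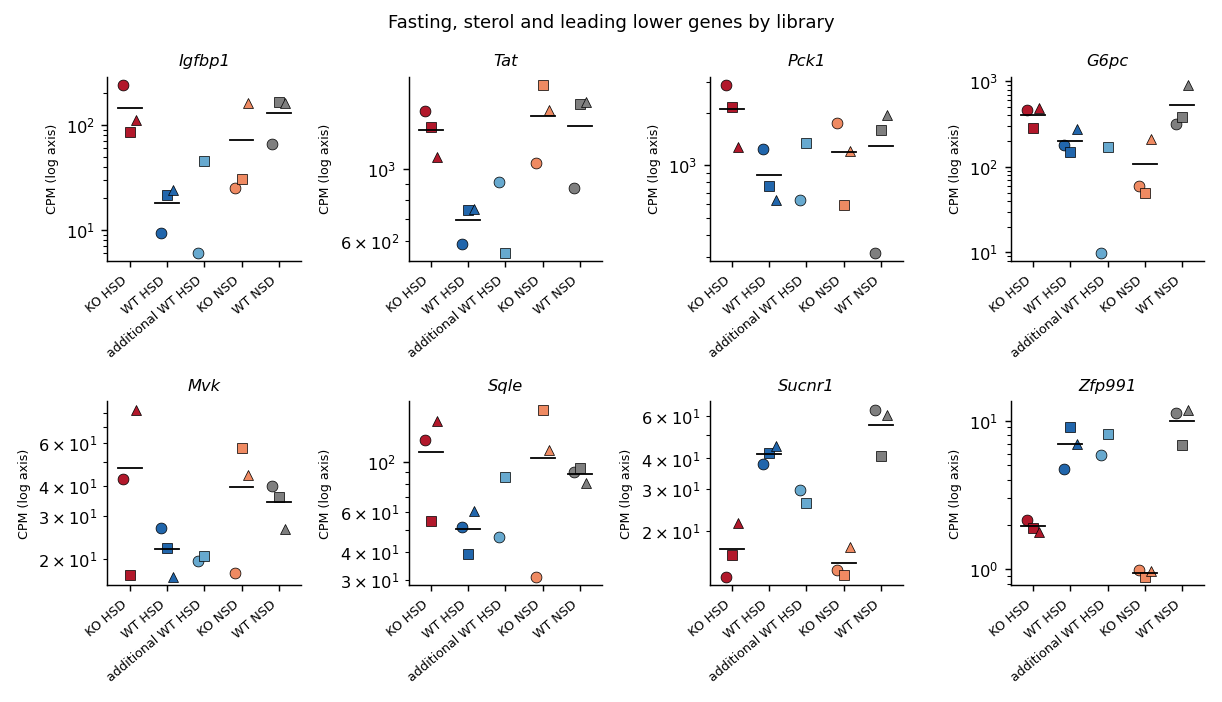
CPM (log axis) of 8 genes in single libraries of KO HSD, WT HSD, additional WT HSD, KO NSD and WT NSD, where circles, squares and triangles are libraries 1, 2 and 3 and bars are means of 3 libraries. All 3 KO HSD libraries lie above WT HSD for Igfbp1, Tat, Pck1 and G6pc and below WT HSD for Sucnr1 and Zfp991, while Sqle and Mvk overlap through KO HSD 2.

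Mitochondrial genes, where SIRT3 acts, leaned lower by small amounts. Of 23 genes that encode SIRT3 substrates 20 stood lower, 0 at an unadjusted p under 0.05 and 1 apart, near the 3.92% of all genes apart below. The median log2 fold change was -0.16, and -0.10 without WT HSD 1. With the additional libraries in place of WT HSD 14 of the 23 stood higher and the median was 0.08. The gene apart was Cs, citrate synthase, at 93.1, 114 and 122 CPM in KO HSD, against 152, 126 and 138 CPM in WT HSD. Of 26 nuclear-encoded genes of the respiratory chain 19 stood lower, by a median of -0.06, and with the additional libraries in place 24 stood higher.

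Genes of fatty acid oxidation, ketogenesis and PPAR-alpha, the receptor that drives them in fasting, stood lower in 24 of 28 cases, with a median of -0.27. Of these, 2 stood at an unadjusted p under 0.05 and 1 was apart, beside 2.02% and 3.92% of all genes. The median was -0.05 without WT HSD 1, and with the additional libraries in place of WT HSD 15 of 28 stood lower. Fgf21, a fasting hormone, had 0.9103, 1.796 and 1.28 CPM in KO HSD, against 30.6, 0.401 and 25.4 CPM in WT HSD, where WT HSD 2 was the lowest library of the 6. Vnn1, a PPAR-alpha target that recycles pantothenate, had 17.8, 11.3 and 20.1 CPM in KO HSD, against 49.6, 13.8 and 28.7 CPM in WT HSD.

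Genes of NAD synthesis and use had no common direction, with 10 of 17 higher (8 when scaled by library totals alone) and a median log2 fold change of 0.03. Nnt, the mitochondrial transhydrogenase that makes NADPH, had 76.2, 85.9 and 53.6 CPM in KO HSD, against 35.9, 33.7 and 42.1 CPM in WT HSD. All KO HSD libraries lay above WT HSD, and the additional WT HSD libraries had 47.5 and 42.5 CPM, below every KO HSD library on that scale. In FPKM the additional libraries had 14.6 and 14.3, above KO HSD 3 at 13.6. The log2 fold change was 0.94 ± 0.28 (adjusted p = 0.872). Nnmt, which methylates nicotinamide, had 167, 149 and 79.8 CPM in KO HSD, against 43.6, 86.96 and 37.1 CPM in WT HSD. Nmrk2, a nicotinamide riboside kinase, was apart above at 0.482, 0.505 and 0.666 CPM in KO HSD, against 0.217, 0.229 and 0.278 CPM in WT HSD. Nmnat3, an adenylyltransferase of the same pathway, was apart below at 4.498, 5.33 and 4.67 CPM in KO HSD, against 6.72, 6.87 and 5.71 CPM in WT HSD.

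Antioxidant and NRF2 target genes stood lower in 20 of 26 cases, with a median of -0.12. Of these, 3 stood at an unadjusted p under 0.05 and 4 were apart, beside 2.02% and 3.92% of all genes. The glutathione S-transferase gene Gsta1 had 0.964, 0.842 and 1.11 CPM in KO HSD, against 6.34, 3.09 and 2.69 CPM in WT HSD. Gsta2, its close copy, had 26.5, 12.5 and 11.9 CPM in KO HSD, against 48.7, 35.4 and 35.8 CPM in WT HSD. Both were apart, with log2 fold changes of -2.05 ± 0.46 and -1.24 ± 0.39, and reads may have been shared between them. Cat, catalase, was apart at 2411, 2327 and 2478 CPM in KO HSD, against 3213, 2834 and 2711 CPM in WT HSD. The metallothioneins Mt1 and Mt2, described above, belong to this list and stood higher.

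Stellate cell and matrix genes stood mostly lower in KO HSD. Stellate cells store vitamin A and lay down collagen when activated. Of 19 genes 17 stood lower, 5 of these at an unadjusted p under 0.05 beside 1 of the higher ones, and in 8 the groups were apart with KO HSD below, with a median log2 fold change of -0.46. Without KO HSD 1, 15 of 19 stood lower and the median was -0.25. Hepatocyte markers stood higher in 13 of 14 cases (11 when scaled by library totals alone), 3 apart, with a median of 0.23, and their part in the lower stellate and endothelial values was not tested. Ecm1, a matrix protein that restrains TGF-beta activation, had 48.99, 79.4 and 73.9 CPM in KO HSD, against 139.6, 121 and 119 CPM in WT HSD, a log2 fold change of -0.91 ± 0.26 (adjusted p = 0.867). Pdgfrb, a growth factor receptor of stellate cells, had 4.498, 4.995 and 5.89 CPM in KO HSD, against 6.83, 8.301 and 9.98 CPM in WT HSD. The gelatinase gene Mmp2 had 1.07, 1.35 and 1.44 CPM in KO HSD, against 2.77, 2.46 and 2.97 CPM in WT HSD, and decorin (Dcn) had 60.5, 79.9 and 76.98 CPM in KO HSD, against 86.8, 97.04 and 158 CPM in WT HSD. These 4 genes were apart. The marker sum was 198 to 285 CPM in KO HSD and 370 to 442 CPM in WT HSD, with 266 and 330 CPM in the additional WT HSD libraries. With these in place of WT HSD 11 of 19 stood lower and the median was -0.04.

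All 14 sinusoidal endothelial markers stood lower, with a median of -0.38. Of these, 1 stood at an unadjusted p under 0.05 and 1 was apart, beside 2.02% and 3.92% of all genes. The median was -0.07 without KO HSD 1 and -0.63 without KO HSD 3, and with the additional libraries in place of WT HSD 8 of 14 stood lower. The gene apart was Lyve1, a hyaluronan receptor, at 1.61, 1.91 and 1.94 CPM in KO HSD, against 2.66, 2.75 and 5.197 CPM in WT HSD. The endothelial marker sum was 124 to 279 CPM in KO HSD and 258 to 344 CPM in WT HSD. Proliferation genes stood lower in 19 of 21 cases, with a median of -0.54, 4 at an unadjusted p under 0.05 and 2 apart, beside the same shares of all genes. Without WT HSD 1, 11 of 21 stood lower and the median was -0.08, and with the additional libraries in place of WT HSD 12 stood higher. Cdt1, which licenses replication origins, was apart at 2.09, 1.91 and 1.78 CPM in KO HSD, against 5.31, 3.38 and 3.16 CPM in WT HSD.

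The smallest p-values of the comparison belonged to genes that no list held. Zfp991, a zinc finger gene at chr4:147132093-147180579 (GRCm38.p6), had 2.14, 1.91 and 1.78 CPM in KO HSD, against 4.72, 9.103 and 7.01 CPM in WT HSD. The additional WT HSD libraries had 5.9 and 8.07 CPM, so all 3 KO HSD libraries lay below all 5 wild-type libraries on high salt. The log2 fold change was -1.84 ± 0.28 (adjusted p = 0.221), and Zfp991 was the 1 gene that passed when the additional libraries joined WT HSD (-1.84 ± 0.26, adjusted p = 0.0478). On normal salt, in other libraries, it passed at -3.37 ± 0.30 (adjusted p = 0.000955). Zfp992, at chr4:146449030-146469440 on the same chromosome, had 4.12, 2.97 and 5.11 CPM in KO HSD, against 10.2, 13.5 and 7.38 CPM in WT HSD, and passed on normal salt (adjusted p = 0.00784). Another 4 zinc finger genes, in a cluster on chromosome 2, were apart in the other direction. Gm14326, at chr2:177935993-177957386, had 30.2, 23.6 and 21.7 CPM in KO HSD, against 8.84, 12.2 and 10.3 CPM in WT HSD, a log2 fold change of 1.27 ± 0.20 (adjusted p = 0.221). Gm14295, Gm14322 and Gm14325 stood at 1.14 ± 0.23, 1.51 ± 0.31 and 1.22 ± 0.27. Genes of both clusters are near-identical copies, so their counts are uncertain. The additional wild-type library on normal salt, outside the test, stood with KO HSD in FPKM (counts scaled to gene length and library size). It had 0.53 FPKM of Zfp991, against 0.59 to 0.75 in KO HSD and 1.62 to 3.02 in WT HSD. Zfp992 was at 0.41 there, against 0.75 to 1.27 and 2.22 to 3.32. Gm14326 was at 4.84, against 4.09 to 5.43 and 1.95 to 2.6. Gm14295, Gm14322 and Gm14325 also lay above the WT HSD range there. In FPKM the additional WT HSD libraries stood above WT HSD for the same genes. They had 11.17 and 9.61 of Gm14295, against 6.77 to 6.87 in WT HSD and a lowest KO HSD value of 11.78. Gm14322 had 3.29 and 2.62 in them, and Gm14325 3.82 and 3.2, all above KO HSD 3 at 2.56 and 2.82. Gm14326 had 3.59 and 2.03 in them, below every KO HSD library.

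Sucnr1, the receptor through which stellate cells and other cells sense succinate, was lower in KO HSD. It lies at chr3:60081869-60087566 and had 12.9, 15.9 and 21.5 CPM in KO HSD, against 37.9, 42.3 and 45.1 CPM in WT HSD, with 29.7 and 26.2 CPM in the additional WT HSD libraries. Its highest KO HSD library was below its lowest wild-type library on either diet. The log2 fold change was -1.32 ± 0.22 (adjusted p = 0.221) on high salt and -1.90 ± 0.22 (adjusted p = 0.00784) on normal salt, where it passed. Slc15a2, a peptide transporter gene, had 0.535, 0.281 and 0.167 CPM in KO HSD, against 2.44, 4.75 and 1.86 CPM in WT HSD, a log2 fold change of -3.17 ± 0.55 (adjusted p = 0.264), though the additional WT HSD libraries spanned 6.97 and 0.599 CPM. Ide, the insulin-degrading enzyme, had 64.7, 56.7 and 69.7 CPM in KO HSD, against 98.8, 137 and 117 CPM in WT HSD, and the log2 fold change was -0.89 ± 0.18 (adjusted p = 0.479). Capn11, a calpain gene, had 0.161, 0.112 and 0.333 CPM in KO HSD, against 3.04, 2.58 and 4.13 CPM in WT HSD, and the additional WT HSD libraries, at 0.325 and 0.876 CPM, lay nearer to KO HSD.

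Pisd and Slc41a2 led the higher genes outside the zinc finger cluster. Pisd, which makes phosphatidylethanolamine in mitochondria, had 148, 136 and 142 CPM in KO HSD, against 84.04, 87.8 and 67.97 CPM in WT HSD, and 83.6 and 61.3 CPM in the additional WT HSD libraries. All KO HSD libraries lay above all wild-type ones, with a log2 fold change of 0.83 ± 0.16 (adjusted p = 0.479). Slc41a2, a magnesium transporter gene, had 95.5, 103 and 97.9 CPM in KO HSD, against 25.3, 51.3 and 27.4 CPM in WT HSD, and 59.2 and 49.8 CPM in the additional WT HSD libraries, a log2 fold change of 1.51 ± 0.31 (adjusted p = 0.479). DESeq2 called both, with adjusted p of 0.002 and 0.00409.

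**Figure D5:**
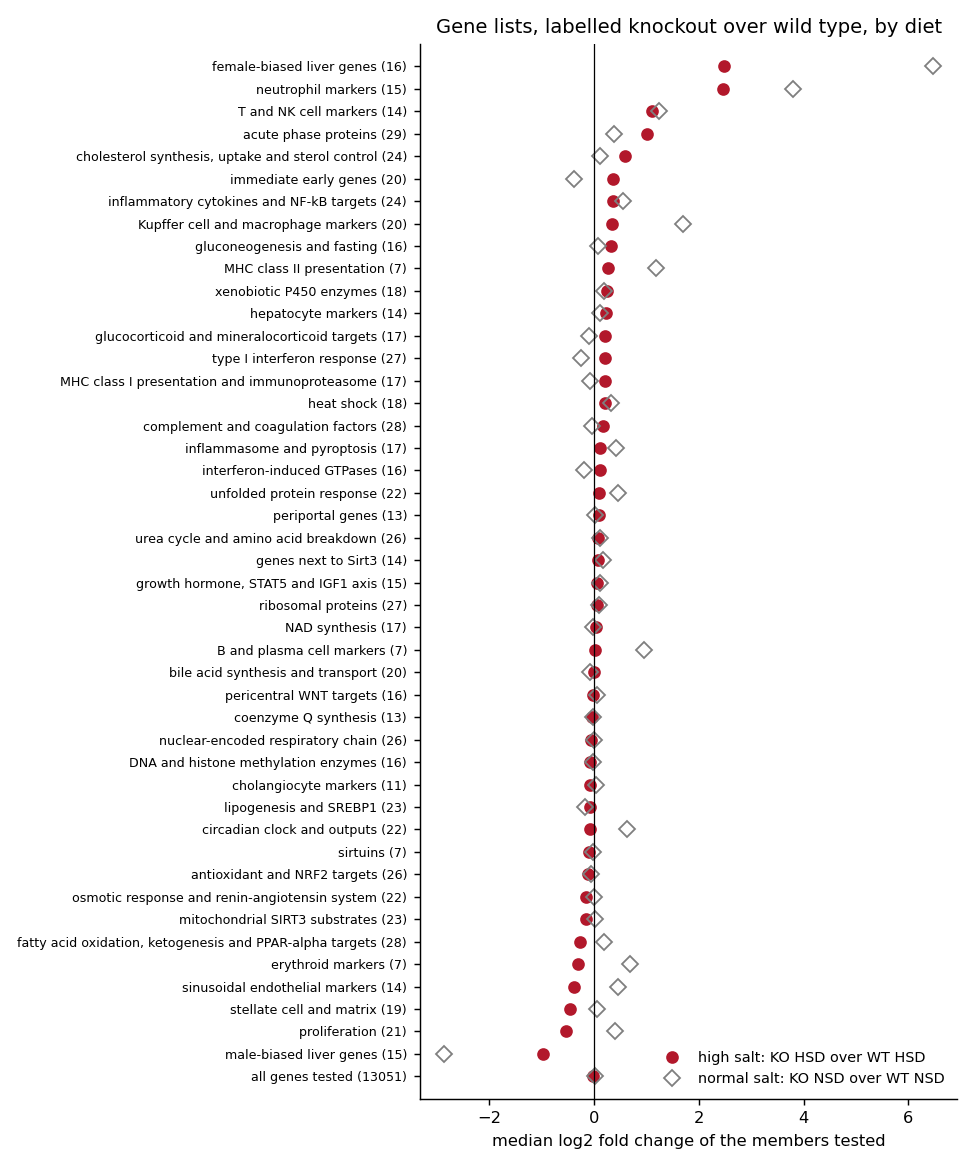
Median log2 fold change of the members tested in each list of 7 or more (numbers in brackets), labelled knockout over wild type, on high salt (filled circles) and on normal salt (open diamonds), with all 13051 genes in the bottom row. On high salt the medians run from -0.98 for male-biased genes to 2.47 for female-biased genes, which is 0.94 over the 10 that pass the filter in the 6 high salt libraries alone, and the medians are descriptions with no test.

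The labelled knockout effect on high salt was not shown to differ from that on normal salt for any gene (0 of 13051, or 0%, by edgeR, with 706 at an unadjusted p under 0.05 and a smallest adjusted p of 0.835), while DESeq2 called 8 and limma-voom 0. On normal salt 54 genes passed (0.414%), 31 higher and 23 lower, but 2 of the 3 KO NSD libraries were those that nearly lacked Y-linked transcripts. Neutrophil markers stood higher on both diets, by medians of 2.46 on high and 3.79 on normal salt over the same 15 markers. Only 8 of these pass the filter in the high salt libraries alone, and over them the high salt median was 1.00. The others, Retnlg included, entered through the normal salt libraries, where the marker sum was 100 to 287 CPM in KO NSD and 14.0 to 29.4 CPM in WT NSD. The 3.79 therefore leans on markers let in by the libraries it describes, and a normal salt median without them was not computed. S100a9, S100a8 and Retnlg passed on normal salt, with adjusted p of 0.0353, 0.0454 and 0.00784. For acute phase genes the medians were 1.01 on high and 0.38 on normal salt, and for cholesterol genes 0.59 and 0.11. Endothelial markers stood at -0.38 on high and 0.46 on normal salt, and proliferation genes at -0.54 and 0.40. Igfbp1 stood at 2.99 ± 0.78 on high and -0.85 ± 0.73 on normal salt, a difference of 3.84 ± 1.06 (adjusted p = 0.835). G6pc stood at 1.02 ± 0.56 and -2.30 ± 0.59, a difference of 3.32 ± 0.81 (adjusted p = 0.835). Ecm1 stood at -0.91 ± 0.26 and 0.57 ± 0.26, a difference of -1.48 ± 0.37 (adjusted p = 0.835).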

How the data were processed

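RNA-seq was read from 15 libraries of mouse liver. The deposited table gives expected counts per gene (18131 Entrez IDs), not normalized. Bowtie2 2.2.5, RSEM 1.2.8 and mm10 are named in the submitters' processing notes, and annotation and strandedness are not stated there. Per-library FPKM, made by the authors, served as a check of the effective length. They also gave the levels named as FPKM, for Sirt3 and for some genes in the additional wild-type libraries. Expected counts were rounded, and 18009 IDs matched RefSeq (GRCm38.p6). edgeR 4.0.16 (R 4.3.3; filterByExpr, TMM, robust quasi-likelihood) was fitted to 12 libraries of 4 groups, with Benjamini-Hochberg adjustment over 13051 genes. The biological coefficient of variation was 0.272. An exact permutation test of 3 against 3 cannot go below p = 0.1. Alternatives used DESeq2 1.42.0, limma 3.58.1, other scalings, filters and library sets, and the test was checked on simulated counts. Genes were named by smallest p, by fold among genes apart, and by smallest p and highest level in each list. The members and the 48 lists were chosen with earlier results of these data known. Adjusted p-values are from edgeR unless another tool is named. The 6 libraries had 18829645 to 19235726 expected counts. Some genes of the lists are counted but not reported by name here.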

Additional observations from a re-analysis of the deposited data

How the results depend on the processing

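No gene passed for KO HSD against WT HSD with the 6 high salt libraries alone, without KO NSD 1 and KO NSD 3, with RLE factors, with library totals alone, with no filter, at a mean CPM of at least 1, with limma-voom, without WT HSD 3 and WT NSD 3, or with the additional WT HSD libraries in place of WT HSD. The last 2 of these settings were chosen after seeing the data. DESeq2 called 28, and adding the additional libraries called 1, Zfp991. Leaving out 1 library gave 0 to 7, with 7 without KO HSD 3 and 2 without WT HSD 1, Btg2 (2.08, adjusted p = 0.00941) and Zfp991. For the difference between diets DESeq2 called 8, leaving out 1 library gave 0 to 4, with 4 without WT HSD 3 and 1 without WT HSD 1, and leaving out WT HSD 3 with WT NSD 3 gave 6. Sirt3 turned to 0.00866 with the additional libraries added and to 0.382 with them in place, where Saa1 (-0.236), Saa2 (-0.386), Tnfaip3 (-0.318) and Mlkl (-0.359) reversed too. With a replicate block 0 genes passed among 12 libraries (smallest adjusted p 0.0826, and 0.0799 for the difference between diets) and 0 among 6 (0.305). Same-numbered libraries had correlations of -0.251 to 0.483, with -0.236, 0.0635 and -0.127 for KO HSD with WT HSD. For WT HSD with WT NSD the correlations were 0.189, 0.108 and 0.483. Values from 3 libraries per group cannot settle whether the numbers mark pairs or a shared batch. Library totals alone moved the median of all genes to -0.0805, and that of the difference between diets to -0.173, against -0.0217. Beside Sirt3, of 1503 gene values under the alternatives 1469 kept their direction and side of the threshold, 30 passed it and 4 reversed. Of 304 list medians 281 moved by less than the spread between KO HSD libraries and 23 by more. That spread is wide where the KO HSD libraries split, and this tally counts no changes of sign. With the additional libraries in place the medians changed sign for cytokines (-0.118), interferon response (-0.113), MHC class I (-0.00976), SIRT3 substrates (0.0823) and proliferation (0.111). The Kupffer cell median changed sign without KO HSD 2 (-0.0952). The cause of these moves was not tested. Depth limits genes with few reads in a group, such as Mpo in WT HSD.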

Other observations

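Glucocorticoid and mineralocorticoid targets stood higher in 14 of 17 cases in KO HSD (11 when scaled by library totals alone, 9 with the additional WT HSD libraries in place of WT HSD), by a median log2 fold change of 0.21. Immediate early genes stood higher in 19 of 20 cases (18 by library totals alone, 13 with the additional libraries in place), by a median of 0.36. Myc, a growth-promoting transcription factor, had 7.44, 13.9 and 3.61 CPM in KO HSD, against 4.12, 3.95 and 1.902 CPM in WT HSD, a log2 fold change of 1.33 ± 0.43 (adjusted p = 0.933) on high salt and 1.47 ± 0.43 on normal salt. Btg2, which restrains cell division, had 21.3, 25.4 and 20.7 CPM in KO HSD, against 23.5, 5.15 and 5.43 CPM in WT HSD, so that WT HSD 1 alone stood with KO HSD. Complement and coagulation genes stood higher in 22 of 28 cases (19 by library totals alone), by a median of 0.18.

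All 7 erythroid markers stood lower in KO HSD, by a median of -0.31, and all 7 stood higher with the additional libraries in place. All 7 MHC class II genes stood higher, by a median of 0.26, and all 7 lower with the additional libraries in place. Of the osmotic response and renin-angiotensin genes 10 stood higher and 12 lower (7 and 15 by library totals alone). Aqp4, a water channel, had 0.589, 0.674 and 0.666 CPM in KO HSD, against 3.199, 1.32 and 1.02 CPM in WT HSD. B and plasma cell markers stood higher in 4 of 7 cases and lower in 3 (3 and 4 by library totals alone). Lrtm1, named after its values were seen, had 28.5, 16.3 and 4.55 CPM in KO HSD, against 3.14, 3.78 and 4.83 CPM in WT HSD. Among the 10 lower genes with the smallest p were also Rerg, a RAS-like growth inhibitor (-1.34 ± 0.33), Mxd4, a partner of MAX (-0.56 ± 0.15), and Plac9b (-1.70 ± 0.41), given as log2 fold changes.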
